A study of Mus musculus with 3 samples.

Results

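Transforming growth factor beta (TGF-beta) ligands, their receptors and 2 associated matrix genes were followed in single cells of embryonic mouse thymus. The 8 genes were *Tgfb1*, *Tgfb2*, *Tgfb3*, *Tgfbr1*, *Tgfbr2*, *Tgfbr3*, *Ltbp1* and *Tgfbi*, taken by name from the 27998 genes of the count matrices, and all 8 were present. Their counts were read in cells marked by 1 of 4 genes, namely *Epcam* (epithelium), *Pdgfra* (mesenchyme), *Cdh5* (endothelium) and *Ptprc* (blood lineages). A cell was taken as positive when it held at least 2 unique molecular identifiers (UMIs, each marking 1 captured RNA molecule) of a marker and at least 90% of its UMIs of the 4 markers were on it. This rule placed 11695 of 23220 kept cells in a class, 3173 of 5932 in the control library, 2397 of 5516 in the library labelled Tbx1neo2/neo2 and 6125 of 11772 in the Foxn11089/1089 library.

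There was 1 library per genotype, from thymic lobes of C57BL/6 embryos at E13 to E13.5. The control was Tbx1+/+. Tbx1neo2/neo2 embryos carry a neomycin cassette in an intron of *Tbx1*, a model of 22q11.2 deletion syndrome with lowered *Tbx1*, and Foxn11089/1089 embryos are homozygous for a small in-frame deletion in *Foxn1*, the master transcription factor of thymic epithelium. How many embryos were pooled in each library is not given in the sources used here. With no replicate, no test between genotypes could be made. Ratios between libraries are given with exact 95% intervals that cover counting error only, and a genotype cannot be told apart from its library.

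The matrices held 82936619 to 204655055 UMIs each, and 478, 243 and 675 barcodes were left out for few genes or a high mitochondrial share. *Tbx1* had 114 UMIs in the control library, or 1.39 counts per 1000000 UMIs (CPM), against 656 (4.81 CPM) in the library labelled Tbx1neo2/neo2 and 1102 (5.43 CPM) in the Foxn11089/1089 library. Within classes, *Tbx1* was at 0.850, 5.37 and 7.71 CPM in Epcam-positive cells but at 5.52, 5.32 and 3.67 CPM in Pdgfra-positive and 24.7, 24.5 and 22.96 CPM in Cdh5-positive cells. Over all cells and in Epcam-positive cells, *Tbx1* was thus higher in the library labelled Tbx1neo2/neo2 than in the control library. In Pdgfra-positive and Cdh5-positive cells these libraries were alike. The neomycin cassette lies in an intron, and its effect on the counted 3′ end was not tested. The *Tbx1* counts therefore do not check that genotype. Before filtering, the matrices held 6410, 5759 and 12447 barcodes in the same order. The paper lists the same cell totals under the same genotypes. Such a match does not check the genotype of the embryos. The labels are kept below as given, with the library labelled control as the reference of every ratio. *Foxn1* was at 38.4, 34.6 and 76.5 CPM in the same order, but the small deletion leaves the counted 3′ end in place, so these counts do not check the genotype. Each class carried its own panel of 6 marker genes at 1906 to 4468 CPM, against 6.03 to 139 CPM for the panels of the other classes. The Epcam-positive cells numbered 1939, 797 and 3745, the Pdgfra-positive cells 648, 1274 and 2025, the Cdh5-positive cells 48, 92 and 92, and the Ptprc-positive cells 538, 234 and 263, in the order control, Tbx1neo2/neo2 and Foxn11089/1089. All values below are given in that order. Depth differed between libraries, and the median Epcam-positive cell, for example, held 16474, 45874 and 20247 UMIs. The median mitochondrial share was lower in the control library in every class, at 2.56%, 5.64% and 5.70% in Epcam-positive, 2.79%, 6.34% and 5.78% in Pdgfra-positive, 3.31%, 7.44% and 4.95% in Cdh5-positive and 2.83%, 5.68% and 5.23% in Ptprc-positive cells. Each pair of libraries shared only 16 to 24 kept cell barcodes.

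TGF-beta ligands are secreted as latent complexes, held by a propeptide and bound to the matrix by latent TGF-beta binding proteins such as Ltbp1. Once released, a ligand binds the type II receptor Tgfbr2, which recruits and phosphorylates the type I receptor Tgfbr1, and SMAD proteins then carry the signal to the nucleus. Tgfbr3 (betaglycan) is a co-receptor that presents ligand, above all TGF-beta 2, and Tgfbi is a secreted matrix protein named for its induction by TGF-beta. In the thymus the pathway is known for its action on developing T cells and on the stroma.

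The stretches of 250 bases before the start sites of *Tgfb1*, *Tgfb2* and *Ltbp1* are shown because these 3 genes differed most clearly between cell classes or between libraries. They are taken from RefSeq on GRCm38.p6, read 5′ to 3′ on the strand of the gene, with matches to the searched motifs in capitals on either strand. The searched motifs were TATAAA (bound by TBP in core promoters), GGGCGG (bound by proteins of the Sp family), TGACGTCA (a cyclic AMP response element), TGACTCA (a site of the AP-1 family, of which these stretches held none and 4.46% of promoters hold at least 1) and CAGAC (the core bound by SMAD proteins).
Tgfb1, chr7:25686752-25687001, plus strand: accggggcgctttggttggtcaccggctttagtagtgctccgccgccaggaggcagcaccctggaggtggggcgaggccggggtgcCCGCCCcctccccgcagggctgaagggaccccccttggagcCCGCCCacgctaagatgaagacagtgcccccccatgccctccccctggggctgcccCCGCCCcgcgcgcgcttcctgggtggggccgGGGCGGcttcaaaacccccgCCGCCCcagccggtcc
Tgfb2, chr1:186705990-186706239, minus strand: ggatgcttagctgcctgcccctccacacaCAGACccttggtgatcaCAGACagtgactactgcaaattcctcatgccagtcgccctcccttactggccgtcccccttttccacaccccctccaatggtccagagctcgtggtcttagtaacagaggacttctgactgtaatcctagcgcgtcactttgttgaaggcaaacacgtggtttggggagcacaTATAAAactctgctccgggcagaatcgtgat
Ltbp1, first start, chr17:75005279-75005528, plus strand: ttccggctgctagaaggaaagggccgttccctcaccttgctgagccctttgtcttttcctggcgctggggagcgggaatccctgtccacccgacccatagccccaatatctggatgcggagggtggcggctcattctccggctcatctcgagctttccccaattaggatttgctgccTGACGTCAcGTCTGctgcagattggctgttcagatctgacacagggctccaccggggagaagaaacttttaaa
The *Tgfb1* stretch held 75.2% G and C and 5 matches to GGGCGG, a motif present in 32.7% of 32851 promoters of this length. The *Tgfb2* stretch held 53.6% G and C, 1 TATAAA at 31 bases before the start (in 12.4% of promoters) and 2 matches to CAGAC (in 42.2% of promoters), and it overlaps an exon of the antisense gene *Gm29491*. The *Ltbp1* stretch held 56.8% G and C, 1 TGACGTCA at 73 bases before the start (in 1.55% of promoters) and 1 CAGAC at 64 bases before it. That stretch ends at base 75005528, whereas the gene model used for coordinates starts at 75005568. The bases following it were not found near the start of an *Ltbp1* transcript, unlike those of *Tgfb1* and *Tgfb2*, so its start and distances are uncertain. Such matches describe the letters only, and they were found by search, not by binding data. The table held a promoter for 6 of the 8 genes, and *Tgfb3* and *Tgfbr3* were without one. The UMI counts of *Ltbp1* sum transcripts from both of its starts.

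Differences between cell classes were tested with edgeR's quasi-likelihood test on 12 sums (4 classes in each of the 3 libraries, with library as a term), and p-values were adjusted by Benjamini-Hochberg over 14490 genes. Of the 8 genes, 6 passed an adjusted p of 0.05 between Epcam-positive and Pdgfra-positive cells, where 46.6% of all genes did. The number was 6 between Epcam-positive and Cdh5-positive cells (43.0% of all genes), 7 between Epcam-positive and Ptprc-positive cells (58.7%), and 7 between Pdgfra-positive and Cdh5-positive cells (40.0%). It was 7 between Pdgfra-positive and Ptprc-positive cells (67.2%) and 6 between Cdh5-positive and Ptprc-positive cells (51.5%). Classes of this kind differ in a large part of their genes, so the shares are to be read against those percentages. Fewer expressing cells and less RNA per cell cannot be told apart in a sum. Levels are compared between classes for a gene, never between genes, because the counts come from 3′ ends.

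**Figure D1:**
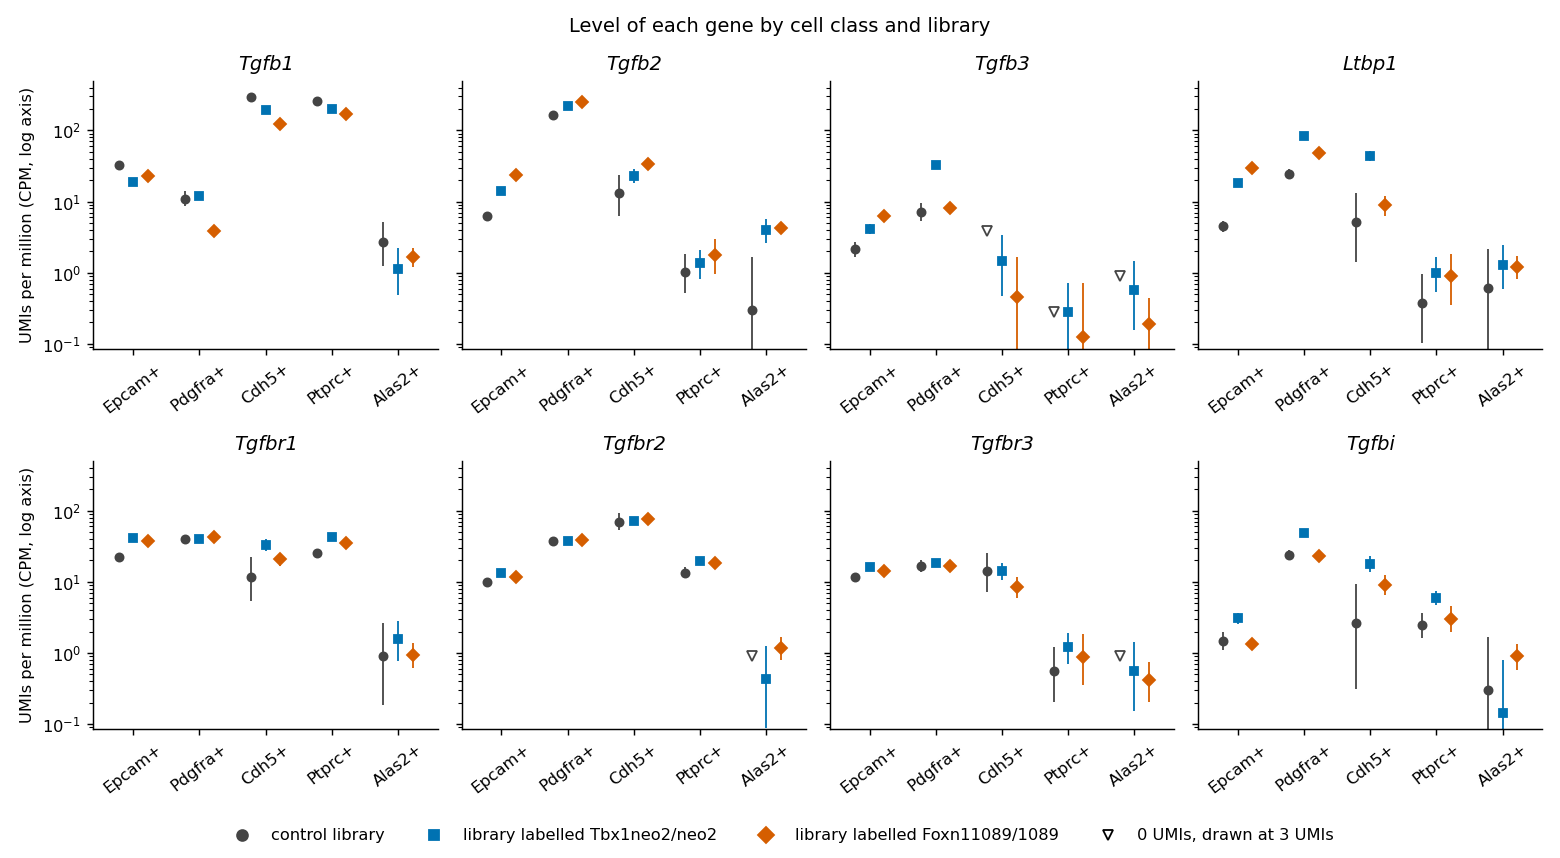
Level of each of the 8 genes (CPM, log axis) in the 4 marked cell classes and in Alas2-positive red blood cells, 1 point per library with its exact 95% Poisson interval; a triangle marks 0 UMIs, drawn at the level of 3 UMIs. Among these classes *Tgfb1* sits highest in Cdh5- and Ptprc-positive cells (124 to 293 CPM), *Tgfb2* in Pdgfra-positive cells (164 to 252 CPM) and *Tgfbr2* in Cdh5-positive cells (70.3 to 77.1 CPM).

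*Tgfb1* (ENSMUSG00000002603, chr7:25687002-25705077, plus strand), the ligand best known from immune cells, was carried by blood and vessel cells. In Ptprc-positive cells it was at 258 (248 to 268), 203 (195 to 210) and 168 CPM (159 to 177), from 2729, 2851 and 1323 UMIs. Cdh5-positive cells held 293 (256 to 334), 194 (179 to 209) and 124 CPM (114 to 135). In every library these levels lay far above those of Epcam-positive cells, at 33.1, 18.9 and 22.9 CPM, and of Pdgfra-positive cells, at 11.03, 12.2 and 3.89 CPM. The edgeR difference was 3.26 on the log2 scale in Ptprc-positive over Epcam-positive cells and 2.96 in Cdh5-positive over Epcam-positive cells (SE 0.29 for both, adjusted p = 7.62e-06 and 2.79e-05). Epcam-positive cells were in turn above Pdgfra-positive cells by 1.56 (SE 0.28, adjusted p = 0.00148). Between the top 2 classes no difference passed, with Cdh5-positive minus Ptprc-positive at -0.30 (SE 0.27, adjusted p = 0.38).

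*Tgfb2* (ENSMUSG00000039239, chr1:186622792-186705989, minus strand), a ligand with wide roles in embryonic mesenchyme, was highest where *Tgfb1* was lowest. Pdgfra-positive cells held 164 (154 to 174), 217 (212 to 222) and 252 CPM (246 to 257), from 1071, 7673 and 7894 UMIs. Cdh5-positive cells held 13.02, 22.8 and 33.4 CPM, Epcam-positive cells 6.22, 14.1 and 23.4 CPM, and Ptprc-positive cells 1.04, 1.35 and 1.78 CPM. Thus the mesenchymal level was over that of every other class in each library, without overlap. Pdgfra-positive cells exceeded Cdh5-positive cells by 3.22 (SE 0.22, edgeR adjusted p = 4.07e-06), and Epcam-positive minus Pdgfra-positive was -3.99 (SE 0.21, adjusted p = 1.05e-06). The step from Epcam-positive up to Cdh5-positive cells was smaller, with Epcam-positive minus Cdh5-positive at -0.77 (SE 0.21, adjusted p = 0.0146), and it was lost without the library labelled Tbx1neo2/neo2 (adjusted p = 0.067). The Ptprc-positive level was no higher than that of red blood cells, at 0.301, 3.96 and 4.27 CPM, in 2 of the 3 libraries. An antisense gene, *Gm29491*, overlaps exons of *Tgfb2*, and it has its own row in the matrices.

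*Tgfb3* (ENSMUSG00000021253, chr12:86056745-86079041, minus strand) was the least counted ligand. Pdgfra-positive cells held 7.20 (5.29 to 9.58), 32.7 (30.8 to 34.6) and 8.04 CPM (7.08 to 9.10), and Epcam-positive cells 2.15, 4.15 and 6.20 CPM. The mesenchymal level was the higher in each library, and the edgeR difference, Epcam-positive minus Pdgfra-positive, was -1.63 (SE 0.45, adjusted p = 0.0133). That call was lost without the control library (adjusted p = 0.108) or without the library labelled Tbx1neo2/neo2 (adjusted p = 0.130). Cdh5-positive cells held 0, 5 and 2 UMIs and Ptprc-positive cells 0, 4 and 1. A count of 0 allows up to 3.90 CPM in the 48 control Cdh5-positive cells and up to 0.283 CPM in the control Ptprc-positive cells.

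*Ltbp1* (ENSMUSG00000001870, chr17:75005568-75392512, plus strand), the latent TGF-beta binding protein that ties the latent ligand to the matrix, was highest in mesenchyme. Its Pdgfra-positive levels were 24.2 (20.6 to 28.3), 82.7 (79.7 to 85.7) and 49.0 CPM (46.5 to 51.5). Epcam-positive cells held 4.49 (3.80 to 5.28), 18.0 (16.8 to 19.4) and 29.95 CPM (28.8 to 31.1), and Cdh5-positive cells 5.21, 44.4 and 8.87 CPM. Ptprc-positive cells held no more than 0.996 CPM. In each library Pdgfra-positive cells were above both other stromal classes, while the order of Epcam- and Cdh5-positive cells differed between libraries. Epcam-positive minus Pdgfra-positive was -1.63 (SE 0.42, edgeR adjusted p = 0.0102) and Pdgfra-positive minus Cdh5-positive was 1.58 (SE 0.49, adjusted p = 0.0266). Both calls were lost without the control library (adjusted p = 0.162 and 0.165). Epcam-positive minus Cdh5-positive was -0.05 (SE 0.49, adjusted p = 0.95), and -1.15 without the Foxn11089/1089 library (adjusted p = 0.009).

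*Tgfbr2* (ENSMUSG00000032440, chr9:116084293-116175360, minus strand), the ligand-binding type II receptor, was highest in Cdh5-positive cells at 70.3 (52.8 to 91.7), 72.7 (64.0 to 82.2) and 77.1 CPM (69.1 to 85.7). Pdgfra-positive cells held 37.2, 37.2 and 38.4 CPM, Ptprc-positive cells 13.5, 19.8 and 18.5 CPM, and Epcam-positive cells 10.1, 13.4 and 11.5 CPM. The order of these classes was the same in each library and every step passed the test. Within the Ptprc-positive class, the few cells with macrophage markers were not below the Cdh5-positive level in any library. Their values are given with that class, and no test was made. Pdgfra-positive minus Cdh5-positive was -1 (SE 0.13, edgeR adjusted p = 0.000233), Pdgfra-positive minus Ptprc-positive 0.91 (SE 0.13, adjusted p = 0.000145) and Epcam-positive minus Ptprc-positive -0.77 (SE 0.13, adjusted p = 0.000542).

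*Tgfbr1* (ENSMUSG00000007613, chr4:47353222-47414931, plus strand), the type I kinase, was the most even of the 8 genes across the classes. Within the Ptprc-positive class, the few cells with macrophage markers were above every class level in each library, as given below. Its levels were 39.4, 40.6 and 43.2 CPM in Pdgfra-positive cells, 25.7, 42.1 and 35.0 CPM in Ptprc-positive cells, 22.1, 40.7 and 37.3 CPM in Epcam-positive cells, and 11.7, 32.9 and 20.9 CPM in Cdh5-positive cells. Among Pdgfra-, Ptprc- and Epcam-positive cells no pair passed the edgeR test, with adjusted p = 0.157 for Epcam- against Pdgfra-positive, 0.232 for Epcam- against Ptprc-positive and 0.767 for Pdgfra- against Ptprc-positive cells. Cdh5-positive cells were the lowest, with Pdgfra-positive minus Cdh5-positive at 0.87 (SE 0.20, adjusted p = 0.00661), Cdh5-positive minus Ptprc-positive at -0.81 (SE 0.20, adjusted p = 0.00722) and Epcam-positive minus Cdh5-positive at 0.55 (SE 0.20, adjusted p = 0.0477). All 3 of these calls were lost when the control library, with its 9 *Tgfbr1* UMIs in 48 Cdh5-positive cells, was left out (adjusted p = 0.090, 0.059 and 0.129), and also without the Foxn11089/1089 library (adjusted p = 0.080, 0.059 and 0.295).

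*Tgfbr3* (ENSMUSG00000029287, chr5:107106570-107289629, minus strand), the co-receptor betaglycan, was counted in the 3 stromal classes and hardly in blood cells. Pdgfra-positive cells held 16.9, 18.7 and 16.7 CPM, Epcam-positive cells 11.7, 15.9 and 14.1 CPM, and Cdh5-positive cells 14.3, 14.1 and 8.41 CPM, while Ptprc-positive cells held 6, 17 and 7 UMIs in all. No pair of stromal classes passed the edgeR test (adjusted p = 0.21, 0.369 and 0.0652), and each of them differed from Ptprc-positive cells. A same-strand gene model, *Gm43422*, overlaps exons of *Tgfbr3* and has no row of its own in the matrices.

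*Tgfbi* (ENSMUSG00000035493, chr13:56609523-56639562, plus strand), the secreted matrix protein, was highest among the classes in mesenchyme at 23.8 (20.2 to 27.8), 47.9 (45.7 to 50.2) and 23.2 CPM (21.6 to 25.0). The few Ptprc-positive cells with macrophage markers held more in each library, as given below. Cdh5-positive cells held 2.60, 17.9 and 9.09 CPM, Ptprc-positive cells 2.46, 5.98 and 3.04 CPM, and Epcam-positive cells 1.49, 3.06 and 1.33 CPM. Epcam-positive minus Pdgfra-positive was -4.01 (SE 0.24, edgeR adjusted p = 1.85e-06) and Pdgfra-positive minus Cdh5-positive was 1.55 (SE 0.24, adjusted p = 0.000764). The smaller difference between Cdh5- and Ptprc-positive cells, 1.29 (SE 0.26, adjusted p = 0.00249), was lost without the library labelled Tbx1neo2/neo2 (adjusted p = 0.065). Red blood cells, marked by *Alas2*, held 0 to 4.27 CPM of any of the 8 genes.

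The share of cells with at least 1 UMI depends on depth, so each cell was first thinned to 2000 UMIs and shallower cells were left out. *Tgfb1* was then seen in 37.9% (33.8 to 42.1, exact Clopper-Pearson), 36.3% (30.2 to 42.8) and 24.4% (19.3 to 30.1) of Ptprc-positive cells, and in 5.56%, 4.18% and 3.60% of Epcam-positive cells. Without thinning, the Ptprc-positive shares were 94.4%, 98.3% and 90.1%, so *Tgfb1* was detected in nearly every blood-lineage cell at full depth. *Tgfb2* was seen in 28.3% (24.9 to 32.0), 28.7% (26.2 to 31.3) and 37.8% (35.7 to 40.0) of thinned Pdgfra-positive cells and in 65.9%, 82.9% and 85.8% without thinning. *Tgfb3* was seen in 1.71%, 7.16% (5.80 to 8.72) and 1.83% of thinned Pdgfra-positive cells and *Ltbp1* in 5.60% (3.95 to 7.67), 14.5% (12.6 to 16.5) and 9.83% (8.57 to 11.2). In thinned Epcam-positive cells *Ltbp1* was seen in 0.676%, 3.04% and 4.90%. Red blood cells, which should lack these genes, gave shares of 0 to 0.847% when thinned and 0 to 3.36% when not. Single draws can stray from the mean over draws at such small numbers. *Tgfb2* was drawn in 0 of 91 Foxn11089/1089 Cdh5-positive cells, whereas 6.58% is expected over draws, so this draw is not read as a share.

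**Figure D2:**
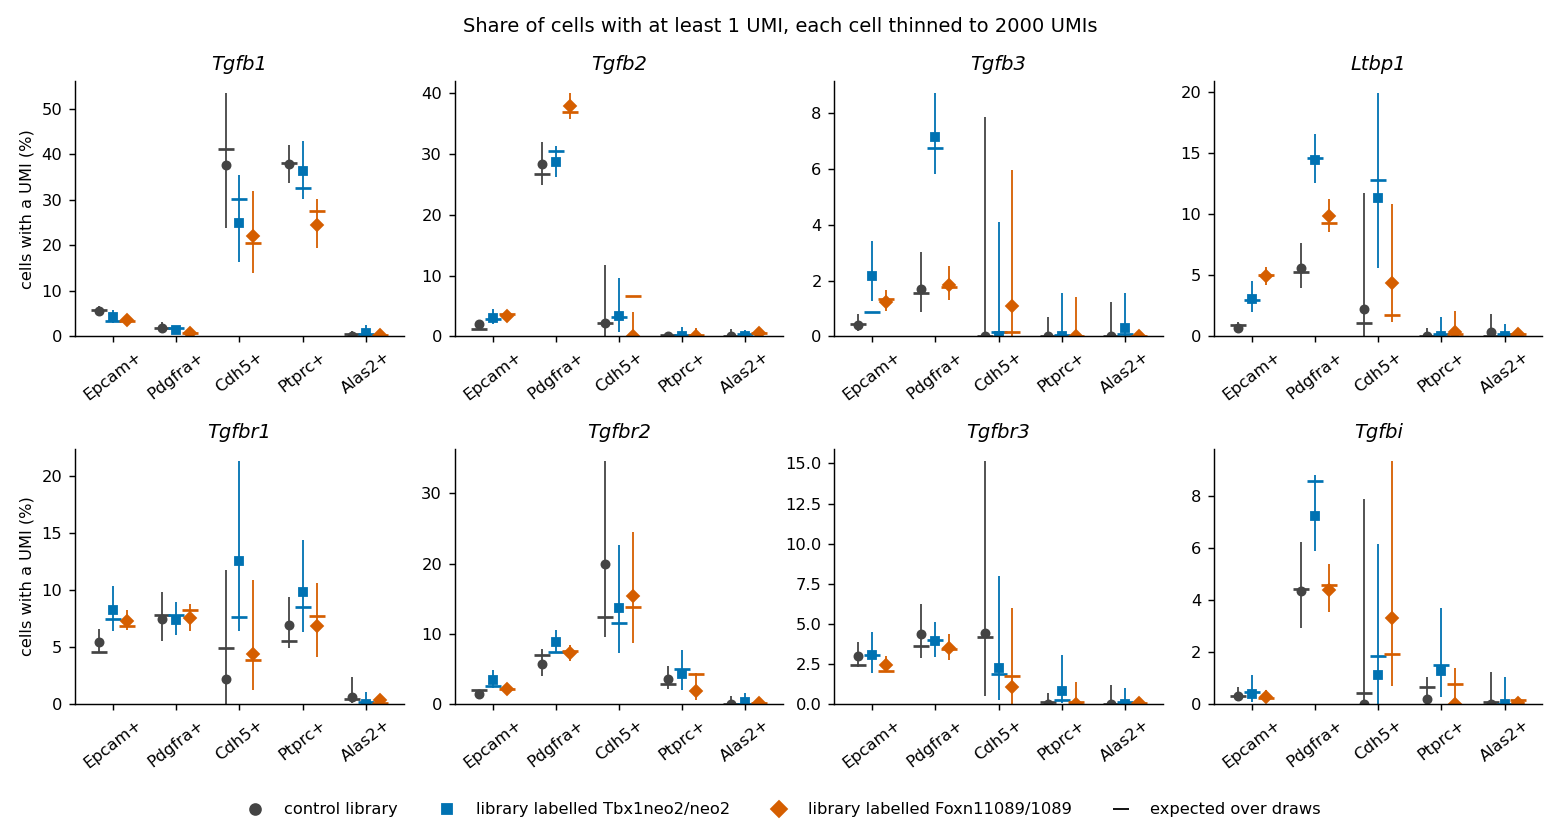
Share of cells (%) with at least 1 UMI of each gene after thinning every cell to 2000 UMIs, by cell class and library; bars are exact 95% Clopper-Pearson intervals and a dash marks the share expected over repeated draws. *Tgfb1* is seen in 24.4% to 37.9% of Ptprc-positive cells, *Tgfb2* in 28.3% to 37.8% of Pdgfra-positive cells.

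Each library was then set beside the control library within a class, as the log2 ratio of CPM. The median of all genes with at least 30 UMIs over both libraries was itself 0.20 to 0.44 above 0, depending on class and library, so ratios below are centred on that median, and a gene is called when its centred ratio reaches 2-fold. Between the library labelled Tbx1neo2/neo2 and the control library, 8 of 28 gene and class pairs were called, 6 higher and 2 lower. Of all genes, 12.7% to 25.9% were called, depending on the class. Without centring 10 were called higher and 0 lower, but calls among all genes leaned higher too. There, 2450 genes were higher and 626 lower of 14102 in Epcam-positive cells, and 2317 and 456 of 13346 in Pdgfra-positive cells. The numbers were 2387 and 377 of 9113 in Cdh5-positive cells, and 1491 and 326 of 11328 in Ptprc-positive cells. For the Foxn11089/1089 library the count was 8 of 27, 5 higher and 3 lower, where 9.56% to 23.8% of all genes were called. Without centring 6 were called higher and 2 lower, and calls among all genes again leaned higher. There, 2871 genes were higher and 1103 lower of 14900 in Epcam-positive cells, and 869 and 471 of 12788 in Pdgfra-positive cells. The numbers were 1347 and 406 of 8899 in Cdh5-positive cells, and 1210 and 586 of 10857 in Ptprc-positive cells. Both comparisons share the control library.

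**Figure D3:**
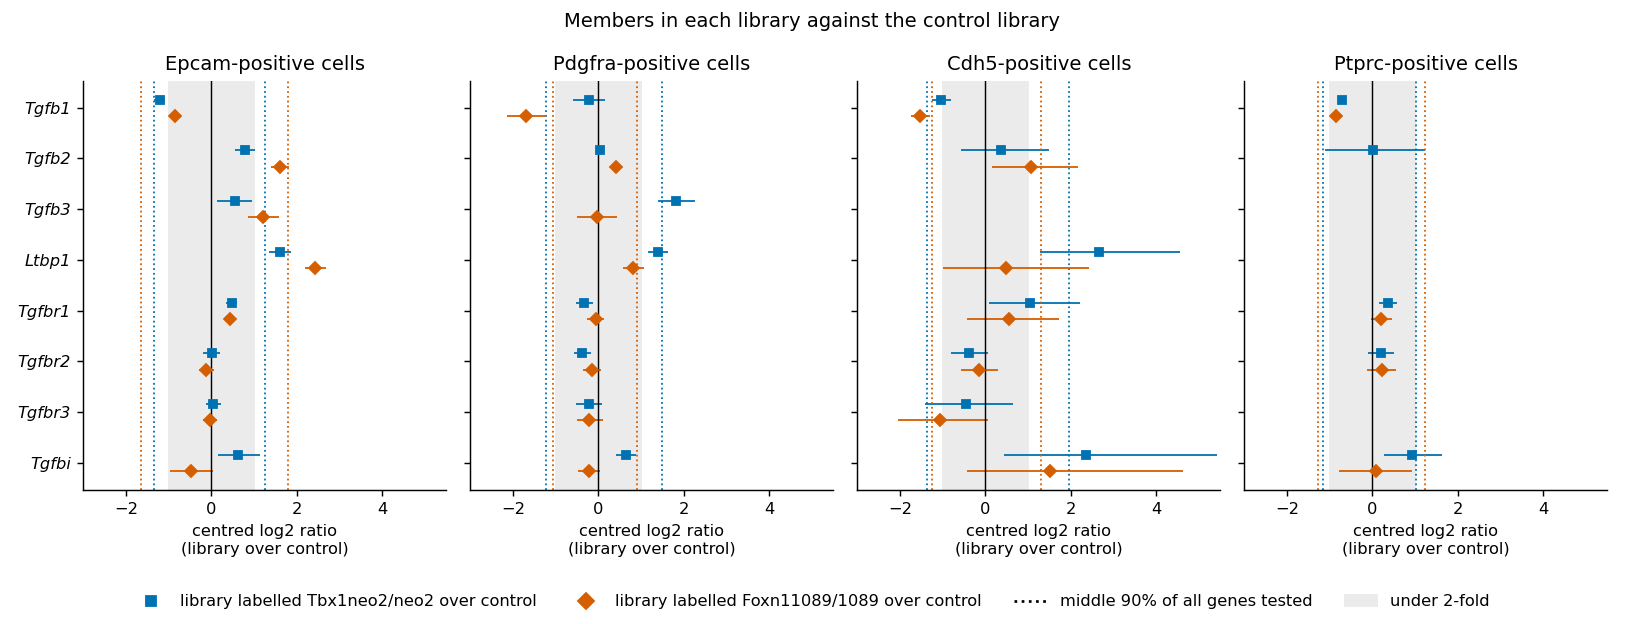
Centred log2 ratio of each gene over the control library, by cell class, for the library labelled Tbx1neo2/neo2 and the Foxn11089/1089 library, with exact 95% intervals for counting error; the grey band lies under 2-fold and dotted lines hold the middle 90% of all genes of the class. *Ltbp1* lies above 0 in all 6 comparisons shown for it and *Tgfb1* below 0 in all 8.

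In Epcam-positive cells, 2 of the 8 genes were called in the library labelled Tbx1neo2/neo2, where 17.4% of all genes were, and 3 of 8 in the Foxn11089/1089 library, where 23.8% were. *Ltbp1* was higher in both, by 1.60 (1.34 to 1.86) and 2.42 (2.18 to 2.67). *Tgfb2* was higher by 1.60 (1.39 to 1.81) in the Foxn11089/1089 library and by 0.78 (0.55 to 1.01), under the limit, in the library labelled Tbx1neo2/neo2. *Tgfb3* was higher by 1.21 (0.85 to 1.59) and 0.54 in the same libraries. *Tgfb1* was lower, at -1.22 (-1.35 to -1.08) in the library labelled Tbx1neo2/neo2 and at -0.85 (-0.96 to -0.74) in the Foxn11089/1089 library. The called ratio of *Tgfb1* came to -0.81 without centring and that of *Tgfb2* to 0.74 after thinning to 2000 UMIs, both under the limit. The thinned value depends on a single draw. In it *Tgfb2* was seen in 1.98% of control cells, where 1.18% is expected over draws. In the Foxn11089/1089 library it was seen in 3.36%, where 3.68% is expected. The receptors stayed under 2-fold, with *Tgfbr1* at 0.47 and 0.44, *Tgfbr2* at 0.00 and -0.12 and *Tgfbr3* at 0.05 and -0.04.

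The makeup of the Epcam-positive cells differed between libraries along with these ratios. Cells with at least 2 parathyroid markers (*Pth*, *Gcm2*, *Casr*, *Chga*) made up 1.65%, 0% and 28.9% of the class, and cells with at least 2 thyroid markers (*Nkx2-1*, *Foxe1*, *Pax8*, *Tg*, *Hhex*) 0.206%, 14.7% and 0.187%. These shares are of cells at full depth, with median depths of 16474, 45874 and 20247 UMIs, and more markers are detected in deeper cells. The summed level was 978, 0.788 and 8049 CPM for the parathyroid list and 3.46, 294 and 5.06 CPM for the thyroid list, while cortical thymic epithelium markers stood at 2053, 2502 and 709 CPM. *Ltbp1* was at 48.7 CPM in the thyroid-marker cells of the library labelled Tbx1neo2/neo2 and at 32.7 CPM in the parathyroid-marker cells of the Foxn11089/1089 library. *Tgfb1* was at 39.1 CPM in the latter and at 3.94 CPM in the former. The mesenchymal panel, at 23.1, 61.0 and 62.4 CPM in Epcam-positive cells, was higher in both libraries in which *Ltbp1*, *Tgfb2* and *Tgfb3* were, and its part in the result was not tested. Red blood cell markers also moved with a library, at 333, 239 and 2389 CPM in Epcam-positive and 231, 270 and 3217 CPM in Pdgfra-positive cells. Their part in the result was not tested. Leaving hemoglobin, mitochondrial and ribosomal genes out of the denominator ended no call, but centring cancels such a change, so nothing is concluded from it.

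Without both kinds of cell, an alternative chosen after seeing the data, *Ltbp1* was at 4.31, 10.9 and 27.9 CPM and *Tgfb2* at 6.28, 14.8 and 21.9 CPM. The centred ratio of *Ltbp1* in the library labelled Tbx1neo2/neo2 then came to 0.94, no longer called. *Tgfb1* was then at 32.7, 22.4 and 13.05 CPM, so its ratio became -0.95 in the library labelled Tbx1neo2/neo2, not called, and -1.53 in the Foxn11089/1089 library, called. In the cells with cortical markers (1593, 605 and 1175 cells, of which 296, 290 and 185 also carried medullary-like markers), *Tgfb1* was at 31.3, 23.7 and 12.9 CPM, *Tgfb2* at 4.91, 12.4 and 17.6 CPM and *Ltbp1* at 3.31, 10.1 and 24.1 CPM. The order of the 3 libraries was the same in cortical-marker cells as in that remainder for each of the 3 genes. The cortical-marker cells are part of that remainder of 1903, 680 and 2656 cells, so this likeness is partly built in. *Tgfbr3*, by contrast, was at 12.2, 18.6 and 8.98 CPM in cortical-marker cells but at 24.4 CPM in Foxn11089/1089 parathyroid-marker cells.

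**Figure D4:**
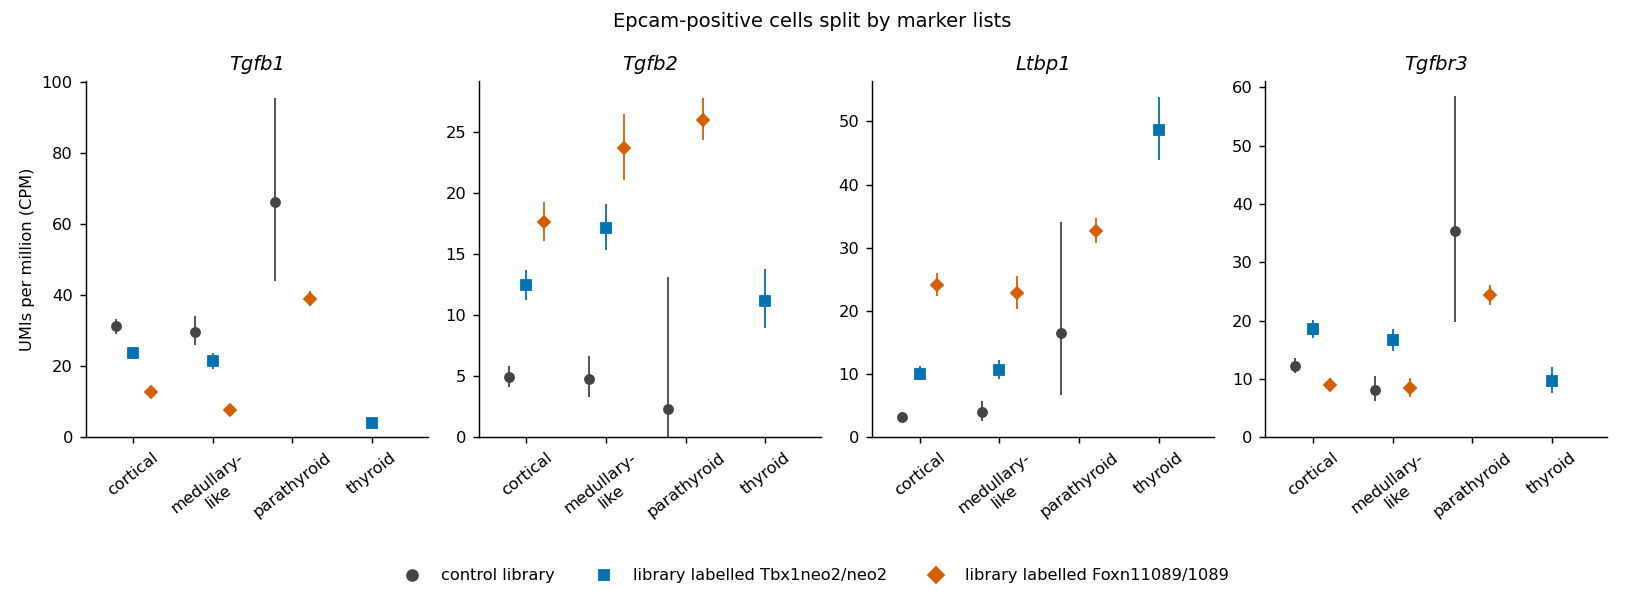
Level (CPM) of *Tgfb1*, *Tgfb2*, *Ltbp1* and *Tgfbr3* in Epcam-positive cells split by markers of cortical or medullary-like thymic epithelium, parathyroid and thyroid, 1 point per library with exact 95% Poisson intervals, for subsets of at least 30 cells. In cortical-marker cells *Tgfb1* goes from 31.3 to 23.7 and 12.9 CPM in the order control, Tbx1neo2/neo2 and Foxn11089/1089, and *Ltbp1* from 3.31 to 10.1 and 24.1 CPM.

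In Pdgfra-positive cells, 2 of 8 genes were called in the library labelled Tbx1neo2/neo2 against 18.2% of all genes, and 1 of 8 in the Foxn11089/1089 library against 9.56%. *Tgfb3* was higher by 1.81 (1.39 to 2.26) in the library labelled Tbx1neo2/neo2 and at -0.04 (0.16 without centring) in the Foxn11089/1089 library. *Ltbp1* was higher by 1.40 (1.17 to 1.64) and 0.82 (0.58 to 1.06), the second under the limit. *Tgfb1*, low in this class throughout, was lower in the Foxn11089/1089 library by a centred ratio of -1.70 (-2.14 to -1.26) and at -0.23 in the library labelled Tbx1neo2/neo2, a value that turned positive without centring. *Tgfb2*, which was higher in this class than in any other, was at 0.03 (-0.06 to 0.12) and 0.42 (0.33 to 0.51), and *Tgfbi* at 0.64 (0.40 to 0.89) and -0.23. *Tgfbr1*, *Tgfbr2* and *Tgfbr3* ranged from -0.38 to -0.07 over both libraries, and 4 of these 6 values lay above 0 without centring.

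Pericyte and smooth muscle markers moved with the first of these libraries. Cells with at least 3 of the 6 markers made up 26.2%, 48.9% and 30.5% of Pdgfra-positive cells, and the summed marker level was 500, 1109 and 518 CPM. The shares are of cells at full depth, with median depths of 9420.5, 25679.5 and 14198 UMIs, and more markers are detected in deeper cells. Of those markers, *Acta2* and *Tagln* are also known TGF-beta targets. The *Tgfb3* and *Ltbp1* values held in the cells without these markers. There *Tgfb3* was at 7.41, 46.0 and 8.88 CPM, against 6.70, 21.5 and 6.48 CPM in the cells with them. *Ltbp1* was at 24.6, 83.1 and 46.7 CPM without and at 23.2, 82.3 and 53.1 CPM with the markers. The centred ratios in the library labelled Tbx1neo2/neo2 without the marked cells were 2.26 (1.77 to 2.80) for *Tgfb3* and 1.38 for *Ltbp1*. Cartilage markers stood at 70.6, 226 and 101 CPM in Pdgfra-positive cells, with 1 or 2 of the 5 at 0 in each library, and their part in the result was not tested.

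In Cdh5-positive cells, 4 of the 7 genes with enough UMIs were called in each comparison, where 25.9% of all genes were called in the library labelled Tbx1neo2/neo2 and 16.9% in the Foxn11089/1089 library. *Tgfb1* was lower in both, at -1.03 (-1.25 to -0.81) and -1.53 (-1.75 to -1.30). *Ltbp1* was at 4 UMIs in the control, 154 in the library labelled Tbx1neo2/neo2 and 39 in the Foxn11089/1089 library, with ratios of 2.66 (1.27 to 4.55) and 0.48 (-0.99 to 2.43). *Tgfbi* had 2, 62 and 40 UMIs, with ratios of 2.34 (0.43 to 5.42) and 1.52 (-0.43 to 4.61), the second interval reaching below 0. *Tgfbr1* was higher by 1.05 (0.08 to 2.22) in the library labelled Tbx1neo2/neo2, *Tgfb2* by 1.07 (0.15 to 2.16) in the Foxn11089/1089 library, and *Tgfbr3* there was at -1.05 (-2.06 to 0.07). With 48 control cells the intervals are wide. The call of *Tgfb1* in the library labelled Tbx1neo2/neo2 sat at the limit and was lost in 6 alternatives (-0.98 to -0.60). Arterial markers stood at 394, 749 and 199 CPM and the mesenchymal panel at 9.11, 56.0 and 43.0 CPM in these cells, and their part in the result was not tested. Within the arterial-marker cells (20, 75 and 62), *Tgfb1* was at 327, 192 and 123 CPM and *Ltbp1* at 8.32, 50.4 and 7.29 CPM, and within the remaining cells at 262, 204 and 127 CPM and at 2.45, 15.2 and 14.5 CPM. This split was made at full depth, with median depths of 16970, 22495 and 40043 UMIs, so the subsets need not be alike between libraries.

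In Ptprc-positive cells none of 5 genes was called in the library labelled Tbx1neo2/neo2 (12.7% of all genes) and none of 4 in the Foxn11089/1089 library (15.6%). *Tgfb1* was lower by less than 2-fold, at -0.70 (-0.78 to -0.63) and -0.86 (-0.95 to -0.76). *Tgfbi* was at 0.93 (0.28 to 1.62) and 0.07. Macrophage markers in this class stood at 164, 619 and 592 CPM and T lineage markers at 721, 748 and 246 CPM. *Tgfbi* was counted mainly in the cells with macrophage markers (16, 32 and 28 cells), at 68.6, 53.2 and 36.9 CPM, against 0, 1.45 and 0.545 CPM in the cells with T lineage markers. The receptors *Tgfbr1* and *Tgfbr2* were also higher in macrophage-marker cells of every library, with no test made. *Tgfbr2* was at 103, 80.2 and 77.6 CPM in macrophage-marker cells and at 11.2, 14.1 and 18.0 CPM in T lineage cells. *Tgfbr1* was at 93.0, 111 and 88.6 CPM in the former and at 26.3, 39.7 and 23.4 CPM in the latter. *Tgfb1* in T lineage cells was at 227, 175 and 123 CPM, the same order as in the class as a whole, and in macrophage-marker cells at 250, 250 and 231 CPM.

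Across classes, then, *Tgfb1* was below the control in 8 of 8 comparisons after centring, with 7 intervals wholly below 0 and 4 calls, and in 7 of 8 without centring. *Ltbp1* was above it in 6 of 6, with 5 intervals wholly above 0 and 4 calls. *Tgfb2* was above it in 7 of 7, with 4 intervals wholly above 0 and 2 calls, neither of which was kept after thinning. *Tgfbr2* was called in 0 of 8 comparisons, its ratios running from -0.39 to 0.22. How many of all genes keep the same sign, or gather as many calls, across these comparisons was not counted. Whether such runs are particular to these genes was therefore not tested. A shift in the control library alone moves both ratios of a class the same way. All of these rest on the same control library, whose mitochondrial share was the lowest. Leaving out cells with 10% or more mitochondrial UMIs ended no call. Every class median lay under that limit, so the filter can leave the difference between libraries in place, and its part was not tested.

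The other genes of the pathway were taken from lists of 34 genes covering latency and activation, co-receptors, SMADs, regulators and targets. In the library labelled Tbx1neo2/neo2, 7 were called higher and 3 lower of 31 tested in Epcam-positive cells (17.4% of all genes were called), 7 and 1 of 32 in Pdgfra-positive cells (18.2%), 14 and 2 of 29 in Cdh5-positive cells (25.9%) and 4 and 5 of 25 in Ptprc-positive cells (12.7%). Without centring the splits were 14 and 1, 11 and 1, 17 and 1, and 6 and 1, where calls among all genes also leaned higher, as given above. Their median centred ratios were 0.56, 0.25, 0.90 and -0.29, where the median of all genes is 0 by construction. In the Foxn11089/1089 library the counts were 10 higher and 4 lower of 34 (23.8% of all genes), 3 and 6 of 32 (9.56%), 5 and 2 of 26 (16.9%) and 3 and 3 of 22 (15.6%), with medians of 0.52, -0.25, 0.04 and 0.05. Without centring those splits were 13 and 2, 3 and 2, 6 and 2, and 3 and 3, again beside a lean to higher calls among all genes.

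Among the genes of latency and activation, *Itgb8*, an integrin subunit that frees latent TGF-beta, was higher by 2.49 and 1.99 in Epcam-positive cells and by 2.13 and 1.20 in Pdgfra-positive cells of the library labelled Tbx1neo2/neo2 and the Foxn11089/1089 library. *Itgb6*, the epithelial subunit with the same role, was higher by 2.14 and 1.59 in Epcam-positive cells. *Furin*, the protease that cleaves the TGF-beta precursor, was called lower in all 4 classes of the Foxn11089/1089 library, at -1.62 in Epcam-positive cells (25.8 to 10.4 CPM), -1.64 in Pdgfra-positive, -3.16 in Cdh5-positive and -1.69 in Ptprc-positive cells. *Nrros*, which holds latent TGF-beta on myeloid cells, was lower in Epcam- and Pdgfra-positive cells of the library labelled Tbx1neo2/neo2, at -1.94 and -1.75. The hematopoietic panel was lower there too, from 40.7 to 13.2 CPM in Epcam-positive and from 19.6 to 6.03 CPM in Pdgfra-positive cells, and macrophage markers went from 4.16 to 6.73 CPM in the former and from 17.2 to 1.39 CPM in the latter. Their part in the result was not tested. In Cdh5-positive cells of that library, the matrix-binding *Ltbp4* went from 7 to 844 UMIs (9.11 to 243 CPM), fibrillin gene *Fbn1* from 4 to 704 and *Ltbp3* from 1 to 217, each from a control count of very few UMIs.

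Among the targets, the smooth muscle genes *Acta2* and *Tagln* were higher in Pdgfra-positive cells of the library labelled Tbx1neo2/neo2, by 1.53 (86.7 to 324 CPM) and 1.54 (53.5 to 201 CPM), together with the pericyte and smooth muscle markers of which they form part. *Acta2* was also higher in its Epcam-positive cells, by 2.63 (3.25 to 26.7 CPM), where the pericyte and smooth muscle list, which includes it, went from 50.7 to 109 CPM and the mesenchymal panel from 23.1 to 61.0 CPM. *Col1a1*, a chain of fibrillar collagen, was lower in Pdgfra-positive cells of the Foxn11089/1089 library, at -1.31 (2407 to 1117 CPM). Among co-receptors, *Cd109*, which binds TGF-beta and limits signaling, was higher in Pdgfra-positive cells of both libraries, by 2.39 and 1.38, the second with an interval that reached below 0.

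**Figure D5:**
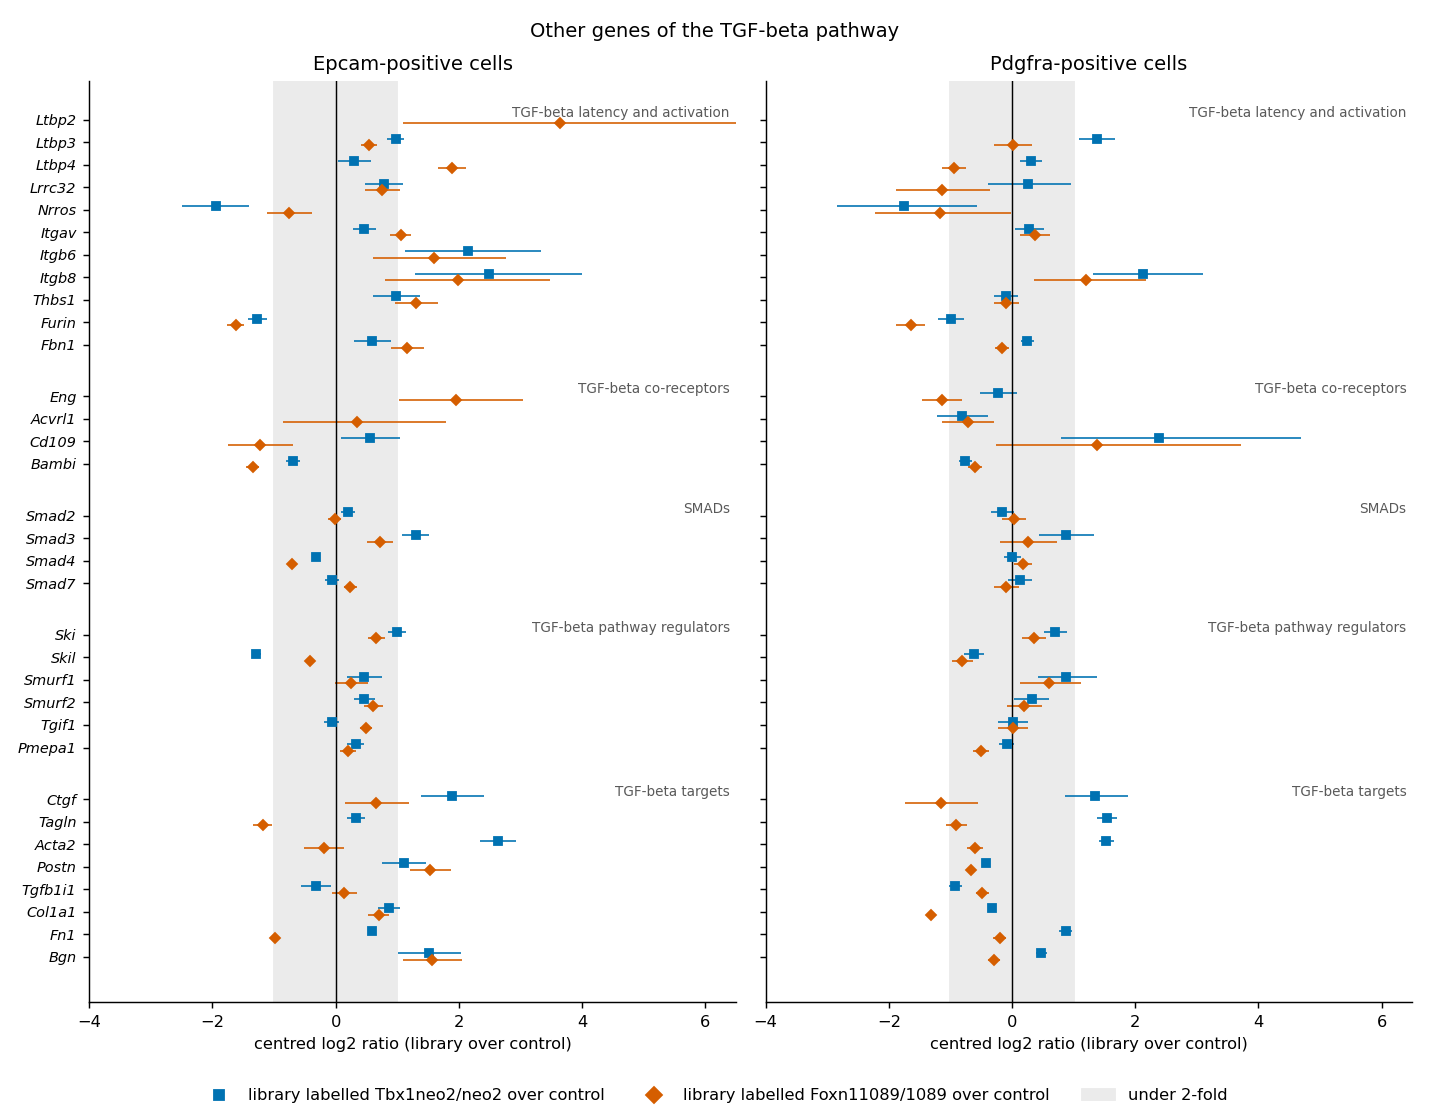
Centred log2 ratio over the control library of other pathway genes in Epcam- and Pdgfra-positive cells, for the library labelled Tbx1neo2/neo2 and the Foxn11089/1089 library, grouped by list; genes under 30 UMIs are not drawn. *Itgb8* lies above 2-fold in both classes and both libraries (1.20 to 2.49).

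Likeness of pattern was described by Pearson's r over the 12 sums, on log2(CPM + 1), against 13395 genes. The sums share libraries and classes, so r mainly reflects which class is high, and no p is given. The 2 genes most like each member were *Gpr146* and *Abcg1* for *Tgfb1* (r = 0.97 for both), *Nsg1* and *Rbpms2* for *Tgfb2* (0.987 and 0.986), *Srsf12* and *Wnt5a* for *Tgfb3* (0.988 and 0.982), and *Pard3b* and *AW549877* for *Ltbp1* (0.996 and 0.984). For the receptors they were *Stk38* and *Zbtb43* for *Tgfbr1* (0.962 and 0.961), *Rsu1* and *Stx2* for *Tgfbr2* (0.987 and 0.985) and *Arhgef17* and *Obsl1* for *Tgfbr3* (0.991 for both), and for *Tgfbi* they were *Stom* and *Dpy19l1* (0.971 and 0.967). Among the members themselves, *Tgfb2* was most like *Ltbp1* (0.894), and *Tgfb1* ran opposite to *Tgfb3* (-0.884) and *Tgfb2* (-0.769).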

How the data were processed

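Single-cell suspensions of thymic lobes were profiled in 3 droplet libraries (10x Genomics), 1 per genotype. The authors deposited raw UMI counts per gene and called barcode, without normalization. Per the submitters' processing notes, reads were counted with Cell Ranger 3.0.0 on mm10, and Seurat is also named there. No cluster labels were used here.

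Barcodes were dropped if they held fewer than 200 genes or if mitochondrial genes took 20% or more of their UMIs. Scrublet in scanpy 1.11.5 marked 0.8% of barcodes per 1000 barcodes as likely doublets (304, 254 and 1172 of the kept cells), which stayed in. UMIs were summed per class and library, and CPM is relative to all UMIs of the class. Sums were compared between classes with edgeR 4.0.16 in R 4.3.3 (TMM, filterByExpr, quasi-likelihood test), with DESeq2 1.42.0 as an alternative. Python 3.11.15, numpy 2.4.6, scipy 1.17.1 and pandas 2.3.3 gave the exact intervals (Clopper-Pearson, Poisson and conditional binomial), which cover counting error only. The class test and the ratio intervals were tried on simulated data. The test recovered 76.9% to 80.8% of 4-fold but only 31.2% to 40.2% of 2-fold changes, and 5.22% to 9.77% of its calls were false. The simulated classes were equal but for a small set of genes, whereas 40.0% to 67.2% of genes passed between the real classes. These rates need not hold for the real tests. A class difference that did not pass can still be 2-fold. Of the ratio intervals before centring, 94.8% to 96.3% held the true ratio. The simulated counts had counting error only, which such intervals cover by design. Nothing is concluded from this for differences between single libraries. Subsets needed at least 3 markers of a list (2 for parathyroid, thyroid and arterial lists), counted at full depth. Deeper cells pass such a rule more easily, so subsets need not be alike between libraries. All 8 genes are named, and of the pathway lists up to 6 called genes per class and comparison, by size of ratio, of which some are named. The members and lists were chosen with earlier results of these data known. Gene coordinates are those of GENCODE M21 on GRCm38. Values of 1 gene of the pathway lists are not reported here.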

Additional observations from a re-analysis of the deposited data

How the results depend on the processing

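Thinning every cell to 2000 UMIs, in a single draw, left 3 calls in place of 8 in the library labelled Tbx1neo2/neo2 and 2 in place of 8 in the Foxn11089/1089 library, over fewer gene and class pairs with 30 UMIs (18 and 17). Without the library term, 3 in place of 6 genes passed between Epcam-positive and Cdh5-positive cells, and the cause was not tested. No called ratio that could be recomputed changed sign, and no class difference that passed the test did. Among uncalled ratios, 10 of 55 changed sign without centring, all from below to above 0, and 37 changes of sign were seen over all alternatives, none in a called ratio. Calls were lost under other class rules, scalings or minimums for *Tgfbr1* (0.34 to 0.94), *Tgfbr3* (-0.77 without centring) and *Tgfbi* (0.96 with 1 marker UMI) in Cdh5-positive cells. Under every alternative with a value, the calls of *Ltbp1* (2.18 to 2.74) and *Tgfb3* (1.18 to 1.52) in Foxn11089/1089 Epcam-positive cells and of *Ltbp1* (1.04 to 1.77) and *Tgfb3* (1.69 to 2.26) in Pdgfra-positive cells of the library labelled Tbx1neo2/neo2 were kept. Ratios to a count of 0 after thinning gave no value, as for the called *Tgfb2* in Foxn11089/1089 Cdh5-positive cells, drawn at 0 UMIs. Over all alternatives, 746 ratios moved by less than counting error and 74 by more, 451 class differences kept their side of the threshold, 27 lost it and 2 gained it, and 174 shares of cells moved with the depth while 66 did not. Many of the 746 ratios could hardly move, because centring cancels a new denominator and some alternatives changed 1 class only. Thinning moved 25 ratios by more than counting error and 25 by less, and leaving out centring moved 26 and 29. Leaving out 1 library at a time gave 4 to 6 genes past the threshold between Epcam-positive and Pdgfra-positive cells, 4 to 5 between Epcam-positive and Cdh5-positive, 5 to 7 between Pdgfra-positive and Cdh5-positive, 5 between Cdh5-positive and Ptprc-positive cells, and 7 for the remaining pairs. The alternatives without parathyroid and thyroid cells and without macrophages were chosen after seeing the data. No paired analysis was possible because there was 1 library per group and the labels carry no replicate numbers. Depth limits the Cdh5-positive class most, with 48 control cells.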
